A study of Homo sapiens with 26 samples.

Results

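Described here are 37 protein-coding genes for integrin subunits and laminin chains, taken by gene symbol from the 41078 genes measured in single cell-derived cell lines (SCDCLs) of pancreatic ductal adenocarcinoma. The set held 18 integrin alpha subunits, 8 integrin beta subunits and 11 laminin chains. ITGB1BP1, ITGB1BP2, ITGB3BP and ITGBL1 carry similar symbols but are not subunits and were left out. Of the 37 genes, 28 had a median of at least 1 TPM (transcript abundance corrected for length and scaled to a common total) in either of the 2 sets of libraries described next, and 9 did not.

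The study cloned 2 established human lines, BxPC3 and Panc-1, by limiting dilution to ask whether clones of 1 line differ in their response to gemcitabine, a nucleoside analogue. Polyadenylated RNA of each SCDCL was sequenced once, with the strand kept, which gave 12 libraries labelled BxPC3 and 14 labelled Panc-1, each from 1 clone with no replicate library. No genetic change of the cells is described. In the labels every library carries gemcitabine as a treatment, but the methods mention the drug for viability assays alone, and the response of each library was not analysed here. Library totals ran from 27035724 to 34945608 estimated counts.

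SMAD4, which BxPC3 is known to lack and Panc-1 to express, went against the label of 14 libraries. It was at most 0.0440 TPM in 12 libraries (1 to 7, labelled Panc-1, and 16, 21, 24, 25 and 26, labelled BxPC3), called SMAD4-low below, and at 28.1 to 52.2 TPM in the 14 others, called SMAD4-expressing. Of 5 epithelial markers, EPCAM and CDH1 were higher in every SMAD4-low library. The keratins KRT8, KRT18 and KRT19 were at 298 TPM or more in all 26 libraries with overlapping ranges, and KRT8 and KRT18 had the higher medians in the SMAD4-expressing set (461 against 2053 TPM and 521 against 1598 TPM, SMAD4-low first). VIM and ZEB1, which mark mesenchymal cells, were higher in every SMAD4-expressing library. Of all genes with a median of at least 1 TPM in either set, 15.2% were higher in every SMAD4-low library and 15.8% in every SMAD4-expressing one. The sets were made from a measured gene, so ranges and medians are given for them and no test. Each value is from the bulk RNA of a clone, in which fewer cells of a kind and less RNA per cell cannot be told apart.

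Integrins are receptors of 1 alpha and 1 beta subunit that hold cells to the extracellular matrix and signal through adaptor proteins such as talin and kindlin. Laminins are trimers of an alpha, a beta and a gamma chain and form the sheet of the basement membrane under epithelia. Laminin-332, which holds the chains from LAMA3 and LAMB3, is the ligand of the alpha6 beta4 integrin in hemidesmosomes, the anchoring junctions of epithelial cells, and laminin-511 from LAMA5, LAMB1 and LAMC1 is bound by alpha3 beta1 and alpha6 integrins.

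LAMA3 and LAMB3 were higher in each SMAD4-low library than in any SMAD4-expressing one, and so were both subunits of the receptor alpha6 beta4. LAMA3 (ENSG00000053747, chr18:23689453-23956222, plus strand, GRCh38, GENCODE 44) encodes the alpha3 chain and was at 68.9 to 269.6 TPM with a median of 185 in the SMAD4-low libraries and 0.214 to 14.1 TPM with a median of 1.47 in the SMAD4-expressing libraries. The SMAD4-low libraries thus lay wholly above, with a median 126 times that of the others. LAMB3 (ENSG00000196878, chr1:209614870-209652425, minus strand), the beta3 chain, had a median of 224 TPM (range 105 to 361) in the SMAD4-low libraries and of 0.385 TPM (range 0.0462 to 18.7) in the SMAD4-expressing ones, a ratio of medians of 582. In the SMAD4-expressing set these genes were not at their highest in the same clone, since LAMA3 peaked in library 20 and LAMB3 in library 9.

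Promoters of LAMA3, LAMB3, ITGB4 and ITGB6 were planned for printing. The promoters were searched on both strands for AP-1 sites (TGANTCA), the E-box read by ZEB and SNAI factors (CACCTG) and the GC box read by SP and KLF factors (GGGCGG). The windows span 250 bases before to 50 after a RefSeq transcript start (GRCh38.p14), capitals mark the matches on either strand, and the table used held no entry for ITGB4. The LAMA3 window is chr18:23872770-23873069 on the plus strand, 183.6 kb inside the annotated gene, and the LAMB3 windows, both on the minus strand, are chr1:209652376-209652675 and chr1:209651325-209651624.
LAMA3: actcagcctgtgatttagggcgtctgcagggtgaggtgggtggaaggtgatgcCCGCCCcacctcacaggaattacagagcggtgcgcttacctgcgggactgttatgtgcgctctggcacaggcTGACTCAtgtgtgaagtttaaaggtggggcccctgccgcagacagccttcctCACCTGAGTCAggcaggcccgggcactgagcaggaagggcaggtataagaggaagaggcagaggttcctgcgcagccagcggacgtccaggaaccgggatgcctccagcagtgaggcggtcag
LAMB3 upstream start: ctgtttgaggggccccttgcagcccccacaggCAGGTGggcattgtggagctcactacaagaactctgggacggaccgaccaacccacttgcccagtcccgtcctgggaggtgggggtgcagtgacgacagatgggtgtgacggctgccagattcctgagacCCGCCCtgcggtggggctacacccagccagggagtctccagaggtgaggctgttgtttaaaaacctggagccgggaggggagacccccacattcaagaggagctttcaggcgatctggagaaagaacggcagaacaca
LAMB3 downstream start: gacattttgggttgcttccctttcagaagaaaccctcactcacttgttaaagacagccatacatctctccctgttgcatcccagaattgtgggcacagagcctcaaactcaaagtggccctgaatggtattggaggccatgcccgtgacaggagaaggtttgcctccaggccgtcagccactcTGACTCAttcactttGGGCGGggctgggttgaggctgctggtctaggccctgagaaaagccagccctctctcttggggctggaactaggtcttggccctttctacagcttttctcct
In LAMA3, AP-1 sites began at positions -125 and -69 relative to the start, the second overlapping an E-box at -73, and a GC box began at -197. The upstream LAMB3 window held an E-box at -218 and a GC box at -88, and the downstream one held an AP-1 site at -67 and a GC box at -52. Another LAMB3 entry overlaps the upstream window and held a GC box only. Over all 35116 promoter windows of the table, 7.71% held an AP-1 site, 20.59% the E-box and 44.95% the GC box. A match is only a run of letters, and no binding was measured.

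**Figure D1:**
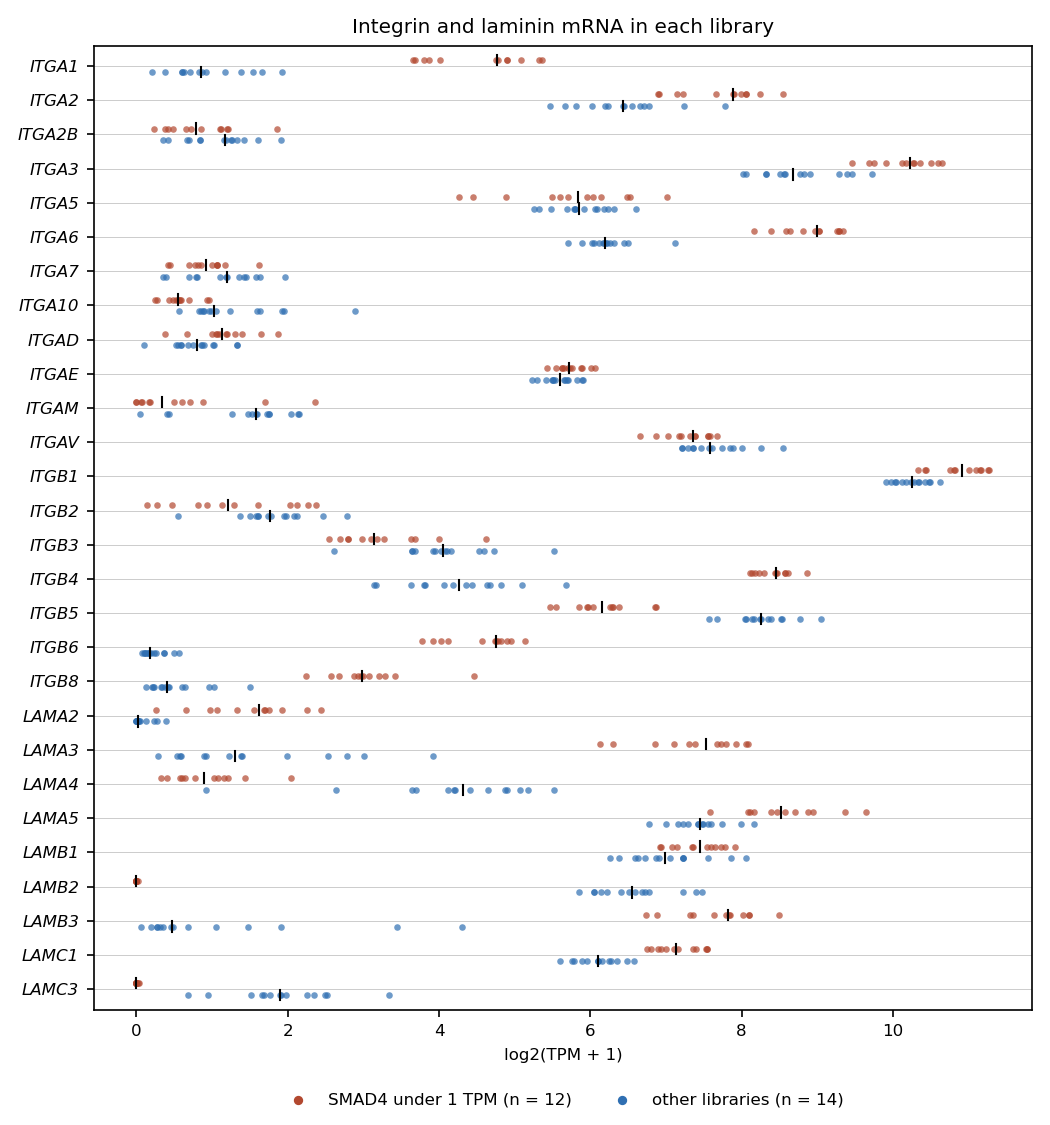
The horizontal axis gives log2(TPM + 1) of the 28 genes with a median of at least 1 TPM in either set, 1 point per library (12 SMAD4-low, 14 SMAD4-expressing), and black ticks mark the medians. The points of LAMA3, LAMB3, ITGA6, ITGB4, ITGB6, ITGB8, ITGA1 and LAMC1 lie apart with the SMAD4-low libraries to the right, and those of ITGB5, LAMB2 and LAMC3 with the SMAD4-expressing libraries to the right.

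ITGA6 (ENSG00000091409, chr2:172427354-172506459, plus strand), the alpha6 subunit that pairs with beta1 or beta4, was at 287 to 645 TPM with a median of 511 in the SMAD4-low libraries and 51.3 to 138 TPM with a median of 72.2 in the SMAD4-expressing libraries. Its ranges did not overlap and the ratio of medians was 7.08. ITGB4 (ENSG00000132470, chr17:75721328-75757818, plus strand), which pairs only with alpha6 and links it to intermediate filaments, had a median of 349 TPM (range 275 to 465) in the SMAD4-low libraries and of 18.3 TPM (range 7.86 to 50.04) in the SMAD4-expressing ones, a ratio of 19.1. ITGB4 was the steadier of the pair among the SMAD4-low clones, where its highest value was 1.69 times its lowest, whereas among the SMAD4-expressing clones this ratio was 6.37.

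Among these 28 genes, ranges did not overlap for 8 that were higher in the SMAD4-low libraries, beside 15.2% of the 15246 genes of the whole table that passed the same level of 1 TPM. They did not overlap for 3 that were higher in the SMAD4-expressing libraries, beside 15.8% of all genes. A gene that reached 1 TPM in only 1 set passed through the set where it was high, so the 15 that reached it in both sets were counted alone: 4 of these (ITGA6, ITGB4, LAMA3 and LAMC1) were higher in the SMAD4-low and 1 (ITGB5) in the SMAD4-expressing libraries, where 10.5% and 14.4% of 12381 genes were. The difference of log2(TPM + 1) between the medians of the sets, SMAD4-low minus SMAD4-expressing, had a median of 0.65 over these 15 genes and of -0.053 over the 12381, and its median size was 1.03 and 0.54. Over all 15246 genes the median difference was -0.0097. Of all genes that reached 1 TPM only in the SMAD4-low or only in the SMAD4-expressing set, 59.5% and 54.0% did not overlap. These counts describe the libraries and are not a test.

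The other genes of the hemidesmosome did not all lie on the same side. Of 4 genes, PLEC (plectin) and COL17A1 (collagen XVII) were higher in every SMAD4-low library, with medians of 327 against 168 TPM and 179 against 0.160 TPM (SMAD4-low first). CD151, a tetraspanin that associates with laminin-binding integrins, was higher in every SMAD4-expressing library, with 393 against 851 TPM. DST had medians of 74.8 against 85.2 TPM and its ranges overlapped. Of all genes, 15.2% were higher in every SMAD4-low library and 15.8% in every SMAD4-expressing one. COL17A1 passed 1 TPM only through the SMAD4-low set, where 59.5% of all such genes did not overlap. The median difference of the list was 0.39 (log2).

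Neither of the gamma chains LAMC1 and LAMC3 overlapped between the sets, and they lay on opposite sides. LAMC1, the gamma1 chain of most laminins, had a median of 139 TPM (range 106 to 186) in the SMAD4-low libraries and of 67.7 TPM (range 47.3 to 94.9) in the SMAD4-expressing ones, a ratio of 2.06. LAMC3, the gamma3 chain, was at 0 TPM in 10 of the 12 SMAD4-low libraries and at most 3.46 estimated counts in the other 2. In the SMAD4-expressing libraries it was at 0.596 to 9.08 TPM with a median of 2.74, highest in library 10. Of all genes, 15.2% were higher in every SMAD4-low library and 15.8% in every SMAD4-expressing one. LAMC3 passed 1 TPM only through the SMAD4-expressing set, where 54.0% of all such genes did not overlap.

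LAMB2 (ENSG00000172037, chr3:49121114-49133118, minus strand), the beta2 chain, was the opposite of LAMB3. It was at 0 TPM in 11 of the 12 SMAD4-low libraries and at 0.622 estimated counts in library 24. A count of 0 allows up to 3 counts, or 0.0858 to 0.111 CPM (counts scaled to a common library total) at the depth of these libraries, counting error only. In the SMAD4-expressing libraries LAMB2 ranged from 56.5 TPM in library 22 to 177 TPM in library 14, with a median of 92.7 and at least 2564 estimated counts, and no ratio is given.

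The window around the LAMB2 start, chr3:49133001-49133300 on the minus strand (RefSeq, GRCh38.p14), is printed because this gene was undetected in 1 set and abundant in the other, and it was chosen after its values were seen.
LAMB2: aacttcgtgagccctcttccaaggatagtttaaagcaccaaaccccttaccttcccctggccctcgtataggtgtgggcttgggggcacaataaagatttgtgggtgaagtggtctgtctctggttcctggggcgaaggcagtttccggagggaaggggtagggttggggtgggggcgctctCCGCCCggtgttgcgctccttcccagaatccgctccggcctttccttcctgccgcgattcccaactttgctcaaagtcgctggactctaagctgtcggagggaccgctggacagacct
It held a GC box at -68 and neither of the other motifs. The nearest protein-coding genes were listed with it, also after its values were seen. USP19 (chr3:49108046-49120938), which ends just below the lowest coordinate of LAMB2, had medians of 32.8 TPM in the SMAD4-low and 21.01 TPM in the SMAD4-expressing libraries. CCDC71 (chr3:49162535-49166331), to the other side, had 12.4 and 9.59 TPM. QARS1, QRICH1 and IMPDH2 were also expressed in all libraries, at 37.1 TPM or more. NDUFAF3, beyond IMPDH2, was lower in every SMAD4-low library (21.9 to 46.5 TPM) than in any SMAD4-expressing one (50.4 to 88.4 TPM), on the same side as LAMB2. Beyond CCDC71, KLHDC8B (1.39 to 4.55 against 2.11 to 9.03 TPM, SMAD4-low first) and C3orf62 (2.60 to 9.02 against 0.725 to 4.07 TPM) overlapped. IHO1 was at most 0.195 TPM and C3orf84 at 0 TPM in all libraries. The pseudogene LAMB2P1, which resembles LAMB2 by name, was at most 0.139 TPM in the SMAD4-low and 0.104 TPM in the SMAD4-expressing libraries. The cause of the absence of LAMB2 reads was not tested.

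**Figure D2:**
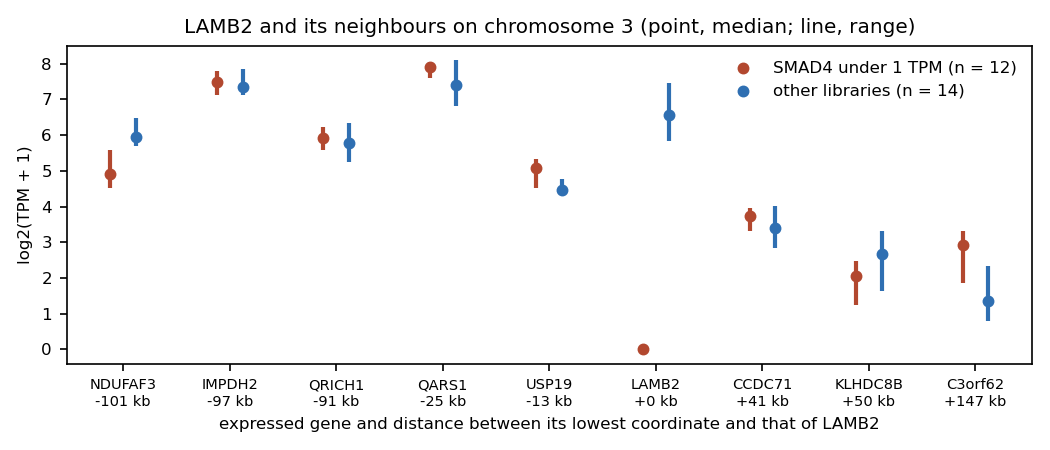
The vertical axis gives log2(TPM + 1), with the median (point) and range (line) over 12 SMAD4-low and 14 SMAD4-expressing libraries, for LAMB2 and the expressed genes among its 5 protein-coding neighbours on each side, in order along chromosome 3. LAMB2 is at 0 in the SMAD4-low set while genes on both sides of it are expressed in both sets.

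LAMB1, the beta1 chain of laminin-511 and laminin-111, differed less and had a median of 174 TPM (range 120.3 to 239.9) in the SMAD4-low libraries and of 126 TPM (range 75.3 to 264) in the SMAD4-expressing ones, with overlapping ranges. Beta chain TPM in the SMAD4-low libraries was divided between LAMB1, at 44.8% (32.8% to 57.1%), and LAMB3, at 55.1% (42.9% to 67.1%). In the SMAD4-expressing libraries it was divided between LAMB1, at 58.1% (38.07% to 69.5%), and LAMB2, at 41.3% (30.3% to 60.9%), and LAMB3 had a median share of 0.145%. Library 9 was the SMAD4-expressing clone with most LAMB3, 11.2% of its beta chain TPM. On estimated counts, which do not divide by length, the LAMB2 median share was 26.4%, since the LAMB2 transcripts that kallisto assigned were short (median effective length 1796 bases in the SMAD4-expressing libraries, against 3887 for LAMB1).

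LAMA5, the alpha5 chain of laminin-511 and laminin-521, was the most abundant alpha chain by median in both sets. It had a median of 367 TPM (range 190.4 to 799) in the SMAD4-low libraries and of 174 TPM (range 109 to 285) in the SMAD4-expressing ones, with overlapping ranges. It supplied 68.97% (41.6% to 90.5%) of alpha chain TPM in the SMAD4-low libraries, where LAMA3 supplied 30.5% (9.43% to 57.7%), and 90.1% (73.7% to 97.3%) in the SMAD4-expressing libraries. LAMA3 exceeded LAMA5 in library 26, the SMAD4-low clone with the least LAMA5. LAMA4, the alpha4 chain typical of vessels and mesenchyme, had a median of 0.872 TPM (range 0.256 to 3.12) in the SMAD4-low libraries and of 18.9 TPM (range 0.887 to 44.98) in the SMAD4-expressing ones. Its ranges met only through library 22, the lowest of the SMAD4-expressing set. LAMA2, the alpha2 chain of muscle and nerve, was low throughout, at 0.199 to 4.43 TPM with a median of 2.08 in the SMAD4-low libraries and 0 to 0.315 TPM with a median of 0.0145 in the SMAD4-expressing libraries, and overlapped only through library 3. LAMA1 was at most 0.117 TPM and LAMB4 at most 1.77 TPM in any library, and both stayed under the filter.

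**Figure D3:**
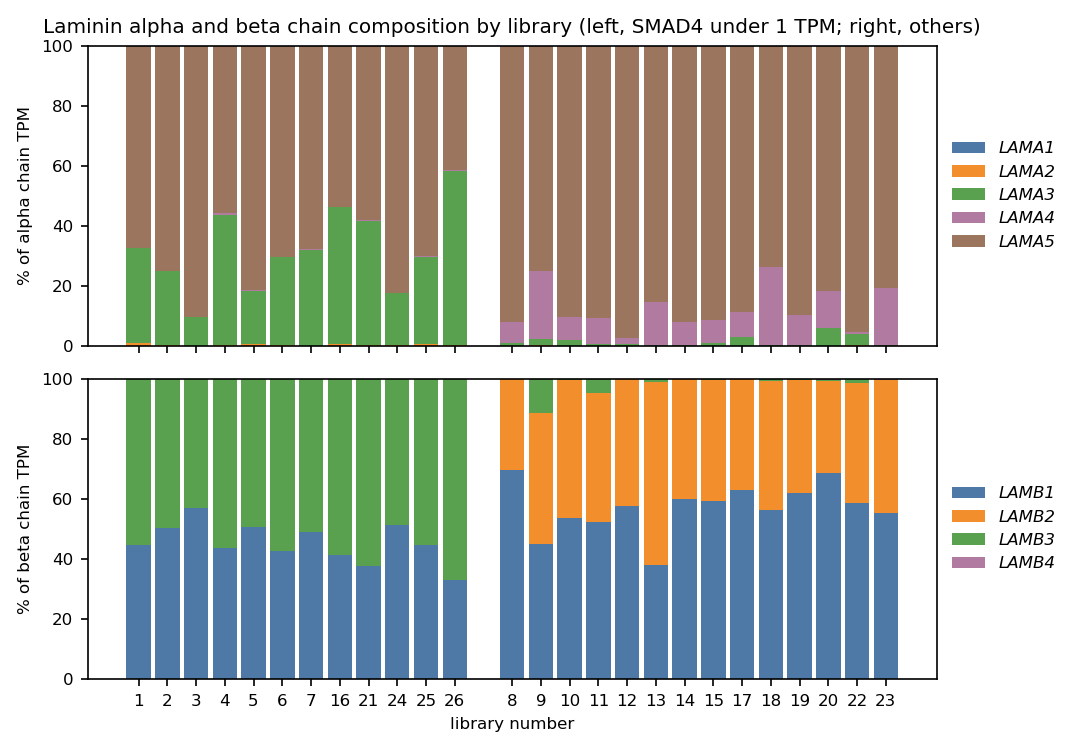
Stacked bars give the percentage of laminin alpha and beta chain TPM from each gene in each library, with 12 SMAD4-low libraries on the left and 14 SMAD4-expressing libraries on the right. LAMB3 fills 42.9% to 67.1% of its panel on the left, and LAMB2 fills 30.3% to 60.9% of its panel on the right.

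Whether clones with more of one partner chain also had more of another was asked within each set. The 4 relations used log2(TPM + 1), 100000 two-sided permutations and Benjamini-Hochberg adjustment over the 4. Across the 12 SMAD4-low libraries, LAMA3 and LAMB3 had r = 0.968 (permutation p = 1e-05, the smallest that these permutations can give, adjusted p = 4e-05) and Spearman's rho = 0.951 (permutation p = 3e-05, adjusted p = 0.00012).

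Clones with much LAMA3 had much LAMB3, with library 3 lowest and library 21 highest in each. Without libraries 3 and 5, the farthest from the median of LAMA3, r was 0.915 (permutation p = 0.00014). Within the 7 libraries labelled Panc-1, r was 0.976 (permutation p = 0.0013), and none was computed over the 5 labelled BxPC3, since at least 6 libraries were required. The correlation of LAMA3 and LAMB3 with the log library total was -0.253 and -0.428.

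Integrin partners were also compared in the same 12 libraries. ITGA6 and ITGB4 had r = 0.732 (permutation p = 0.0076, adjusted p = 0.0152) but rho = 0.601 (permutation p = 0.0422, adjusted p = 0.0563), and r = 0.678 without libraries 3 and 5 (permutation p = 0.0299). Within the 7 libraries labelled Panc-1 their r was 0.877 (permutation p = 0.0097). The correlation of ITGA6 and ITGB4 with the log library total was -0.291 and -0.556, and the part of depth was not tested. ITGAV and ITGB6 had r = 0.646 (permutation p = 0.0229, adjusted p = 0.0306) and rho = 0.671 (permutation p = 0.0203, adjusted p = 0.0407), and r = 0.665 without libraries 5 and 26 (permutation p = 0.0385). The ITGAV and ITGB6 relation no longer passed p = 0.05 without library 5 (r = 0.538) or library 25 (r = 0.601), nor within the libraries labelled Panc-1 (r = 0.679, permutation p = 0.0815).

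In the 14 SMAD4-expressing libraries ITGA6 and ITGB4 had r = -0.138 (permutation p = 0.640, adjusted p = 0.640) and rho = -0.204 (permutation p = 0.483, adjusted p = 0.483), r = -0.465 without libraries 23 and 13 (permutation p = 0.127), and r = -0.268 and 0.320 within the labels Panc-1 and BxPC3 (permutation p = 0.564 and 0.447). Their r was 0.0387 without library 9. ITGA6 and ITGB4 had r = 0.567 and -0.125 with the log library total here. The relation between them did not pass the threshold, and that r differs between the sets was not tested. No correlation was computed here for pairs with LAMB3 or ITGB6, whose medians were under 1 TPM.

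**Figure D4:**
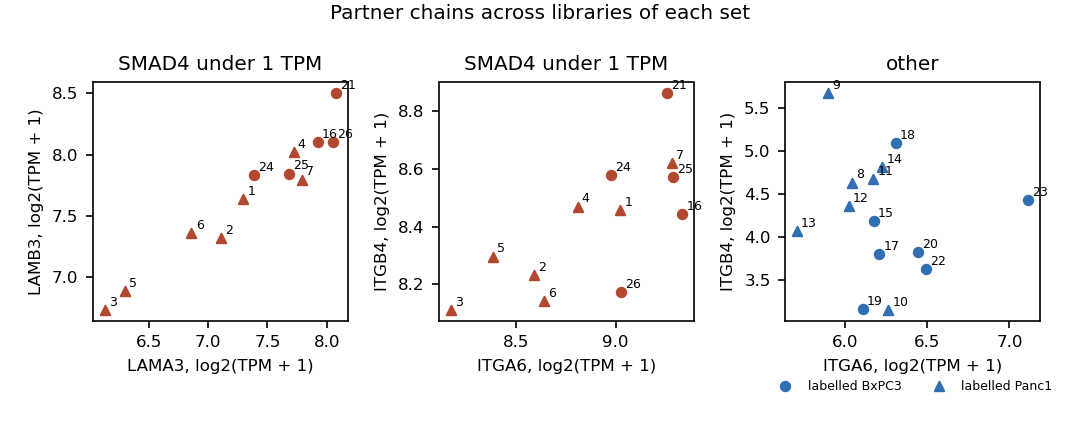
Each point is a library, with log2(TPM + 1) of LAMA3 or ITGA6 on the horizontal axis and of LAMB3 or ITGB4 on the vertical axis, circles for libraries labelled BxPC3, triangles for Panc-1 and library numbers beside the points. In the 12 SMAD4-low libraries LAMA3 and LAMB3 (r = 0.968) lie along a rising line and ITGA6 and ITGB4 (r = 0.732) along a looser one, and in the 14 SMAD4-expressing ones ITGA6 and ITGB4 have r = -0.138.

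Of the beta subunits, ITGB1, which pairs with most alpha subunits, was the most abundant in every library. It had a median of 1928 TPM (range 1293 to 2477) in the SMAD4-low libraries and of 1223 TPM (range 959.8 to 1576) in the SMAD4-expressing ones, with overlapping ranges, and supplied 79.8% (76.2% to 84.6%) and 78.7% (70.3% to 82.2%) of beta subunit TPM. ITGB4 supplied 15.7% (10.7% to 18.5%) in the SMAD4-low libraries and 1.18% (0.491% to 3.77%) in the others. Its median share was 26.9% and 2.25% on estimated counts.

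The proportions of ITGB5, ITGB6 and ITGB8, partners of the alphaV subunit, differed between the sets, while the ranges of alphaV itself overlapped. Together with ITGB3 these were counted as its partners, ITGB1 was not, and ITGB5 had the largest median share in both sets. ITGAV, which with its beta partners binds RGD ligands such as vitronectin and latent TGF-beta, had a median of 163 TPM (range 99.5 to 204) in the SMAD4-low libraries and of 191 TPM (range 147 to 373) in the SMAD4-expressing ones. ITGB5 (ENSG00000082781, chr3:124761948-124901418, minus strand), the partner in the vitronectin receptor alphaV beta5, was at 43.04 to 116 TPM with a median of 70.4 in the SMAD4-low libraries and 188 to 530.1 TPM with a median of 304 in the SMAD4-expressing libraries, so that every SMAD4-expressing library was above every SMAD4-low one and the ratio of medians was 4.32.

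ITGB6 (ENSG00000115221, chr2:160099667-160200313, minus strand), the epithelial partner that activates latent TGF-beta, had a median of 25.9 TPM (range 12.6 to 34.05) in the SMAD4-low libraries and of 0.133 TPM (range 0.0493 to 0.480) in the SMAD4-expressing ones. That is a ratio of 195 against a set that held at most 27.6 estimated counts. ITGB8, another partner that binds latent TGF-beta, was at 3.71 to 21.1 TPM with a median of 6.89 in the SMAD4-low libraries and 0.0925 to 1.83 TPM with a median of 0.321 in the SMAD4-expressing libraries, also without overlap. ITGB3 had a median of 7.80 TPM (range 4.81 to 23.7) in the SMAD4-low libraries and of 15.6 TPM (range 5.09 to 44.8) in the SMAD4-expressing ones and overlapped. ITGB5 supplied 62.6% (44.7% to 75.3%) of the TPM of these 4 partners in the SMAD4-low and 94.7% (92.1% to 97.2%) in the SMAD4-expressing libraries, while ITGB6 supplied 19.3% (15.1% to 31.2%) and 0.0453% (0.0125% to 0.172%).

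ITGB6 showed the largest ratio of medians among the integrins that passed the filter, so its RefSeq window, chr2:160200223-160200522 on the minus strand (GRCh38.p14), is shown with its match, an E-box at -70, in capitals.
ITGB6: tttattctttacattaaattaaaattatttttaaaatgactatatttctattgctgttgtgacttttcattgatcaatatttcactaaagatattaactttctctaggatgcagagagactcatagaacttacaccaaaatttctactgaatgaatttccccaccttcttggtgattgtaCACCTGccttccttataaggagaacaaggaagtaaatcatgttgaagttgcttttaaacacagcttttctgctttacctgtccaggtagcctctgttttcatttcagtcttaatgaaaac

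Laminin and collagen receptors were the other abundant alpha subunits. ITGA3, which with beta1 binds laminin-332 and laminin-511, had a median of 1195 TPM (range 705 to 1600.2) in the SMAD4-low libraries and of 409 TPM (range 258 to 847) in the SMAD4-expressing ones, and its ranges met only through library 18 of the SMAD4-expressing set. It supplied 51.9% (46.2% to 61.00%) and 46.3% (37.1% to 59.1%) of alpha subunit TPM. The collagen receptor subunit ITGA2 had a median of 236 TPM (range 118 to 373) in the SMAD4-low libraries and of 85.7 TPM (range 43.4 to 219) in the SMAD4-expressing ones. Its neighbour on chromosome 5 is the other collagen receptor subunit ITGA1 (ENSG00000213949, chr5:52787916-52959209, plus strand), at 11.6 to 40.2 TPM with a median of 26.2 in the SMAD4-low libraries and 0.155 to 2.81 TPM with a median of 0.801 in the SMAD4-expressing libraries. ITGA1 did not overlap between the sets, with a ratio of 32.6, and ITGA2 did, with 2 SMAD4-expressing libraries above the lowest SMAD4-low one.

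ITGA5, the fibronectin receptor subunit, was close to even between the sets, with a median of 56.2 TPM (range 18.2 to 128) in the SMAD4-low libraries and of 56.8 TPM (range 37.2 to 96.1) in the SMAD4-expressing ones. Its spread was wider among the SMAD4-low clones, where the highest library was 7.03 times the lowest, against 2.58 times in the others. ITGAE, the alpha subunit of the E-cadherin receptor of intraepithelial lymphocytes, had a median of 51.5 TPM (range 42.1 to 66.1) in the SMAD4-low libraries and of 47.4 TPM (range 36.7 to 58.7) in the SMAD4-expressing ones. Its estimated counts were at most 538 in a library and its median effective length 386 and 374 bases, so the TPM rested on short transcripts.

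Apart from ITGAE, ITGB3 and other subunits described above, those known from leukocytes, platelets, muscle or cartilage were low. ITGB2, ITGAM, ITGAD, ITGA2B, ITGA7 and ITGA10 passed the filter with no library above 6.40 TPM, and each overlapped between the sets. ITGA4, ITGA8, ITGA9, ITGA11, ITGAL, ITGAX and ITGB7 did not pass, with no library above 2.04 TPM. ITGB7 was nonetheless higher in every SMAD4-low library, with a median of 0.870 TPM (range 0.367 to 2.04) in the SMAD4-low libraries and of 0.0640 TPM (range 0 to 0.185) in the SMAD4-expressing ones. The leukocyte markers PTPRC and CD3E reached 0.535 and 0.393 TPM at most, CD14 29.1 TPM, and the 3 together 0.0923 to 29.8 TPM in the SMAD4-low and 0.0314 to 3.54 TPM in the SMAD4-expressing libraries. Of 4 fibroblast markers, DCN and LUM reached 1.07 and 0.243 TPM. COL1A1 and PDGFRB overlapped, with medians of 13.9 against 7.98 TPM and 0.0894 against 1.05 TPM, SMAD4-low first. The 4 together ran from 9.65 to 27.95 TPM and from 2.66 to 39.4 TPM, mostly as COL1A1. Of 3 endothelial markers, VWF (at most 0.473 TPM) and CDH5 (1.04 to 13.6 TPM in the SMAD4-low libraries) were higher in every SMAD4-low library. PECAM1 overlapped, and its medians went the other way, at 2.19 TPM in the SMAD4-low and 2.98 TPM in the SMAD4-expressing libraries. The 3 together ran from 3.16 to 16.97 TPM and from 0.321 to 5.39 TPM. CDH5 passed 1 TPM only through the SMAD4-low set, where 59.5% of all such genes did not overlap. The part of other cell types in any difference was not tested.

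Genes that act with integrins were described from lists. Of 23 adaptors and kinases of integrin adhesions, 22 passed the filter, 5 were higher in every SMAD4-low library and 7 in every SMAD4-expressing one, where 15.2% and 15.8% of all genes were. Kindlin-1 (FERMT1), kindlin-3 (FERMT3) and tensin-4 (TNS4) had medians of 53.3 against 0.657 TPM, 49.95 against 1.37 TPM and 122 against 0.0455 TPM, SMAD4-low first. On the other side were tensin-3 (TNS3), talin-2 (TLN2) and integrin-linked kinase (ILK), at 16.3 against 167 TPM, 2.10 against 27.8 TPM and 47.04 against 140.3 TPM. The list had a median difference of -0.16 (log2), and the summed TPM of the list was 2182 to 3205 in the SMAD4-low and 2697 to 4104 in the SMAD4-expressing libraries. Thus tensins lay on both sides, and both talins (TLN1 and TLN2) were higher in the SMAD4-expressing libraries. FERMT1 and TNS4 passed only through the SMAD4-low set and LIMS2 only through the SMAD4-expressing set, where 59.5% and 54.0% of all such genes did not overlap.

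Of 14 other basement membrane genes and laminin receptors, 13 passed, 7 were higher in every SMAD4-low library and 1 in every SMAD4-expressing one (15.2% and 15.8% of all genes), with a median difference of 1.57 (log2). COL4A5 and COL4A6, which encode chains of collagen IV, had medians of 168 against 0.312 TPM and of 125 TPM against at most 0.146 TPM, and NID2 (nidogen-2) had 44.1 against 0.129 TPM. Perlecan (HSPG2), the exception, had 20.9 against 137 TPM. COL4A5, COL4A6 and NID2 passed only through the SMAD4-low set, where 59.5% of all such genes did not overlap. AGRN, COL7A1, SDC1 and SDC4 passed in both sets and were also higher in every SMAD4-low library. Of 13 other integrin ligands, 11 passed, 4 were higher in every SMAD4-low library and 2 in every SMAD4-expressing one (15.2% and 15.8% of all genes), with a median difference of 1.38 (log2). The share on the second side was near that of all genes. Thrombospondin-1 (THBS1), fibronectin (FN1) and osteopontin (SPP1) had medians of 185 against 4.64 TPM, 32.6 against 1.33 TPM and 10.8 against 0 TPM, and CCN2 and vitronectin (VTN) 25.2 against 145 TPM and 0 against 1.11 TPM. SPP1 passed only through the SMAD4-low set and VTN only through the SMAD4-expressing set.

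Clones of 1 set differed from each other in these genes by more than in most genes. The SD of log2(TPM + 1) over the 12 SMAD4-low libraries was above the median of all genes (0.297) for 18 of the 21 integrin and laminin genes with a median of at least 1 TPM there, and over the 14 SMAD4-expressing libraries it was above the median (0.286) for 19 of 22. Among genes with a median of at least 10 TPM these counts were 14 of 16 and 13 of 15, where 50% of all genes lie above by construction. ITGA5 had the largest SD of these genes in the SMAD4-low set (0.84) and LAMA4 in the SMAD4-expressing set (1.19), and ITGAE had the smallest in both (0.19 and 0.21). The SD over libraries was more than 2 times that over kallisto resamples of a library, which measures counting and assignment error, for 20 of the 21 (the exception was ITGAD) and for 22 of the 22.

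**Figure D5:**
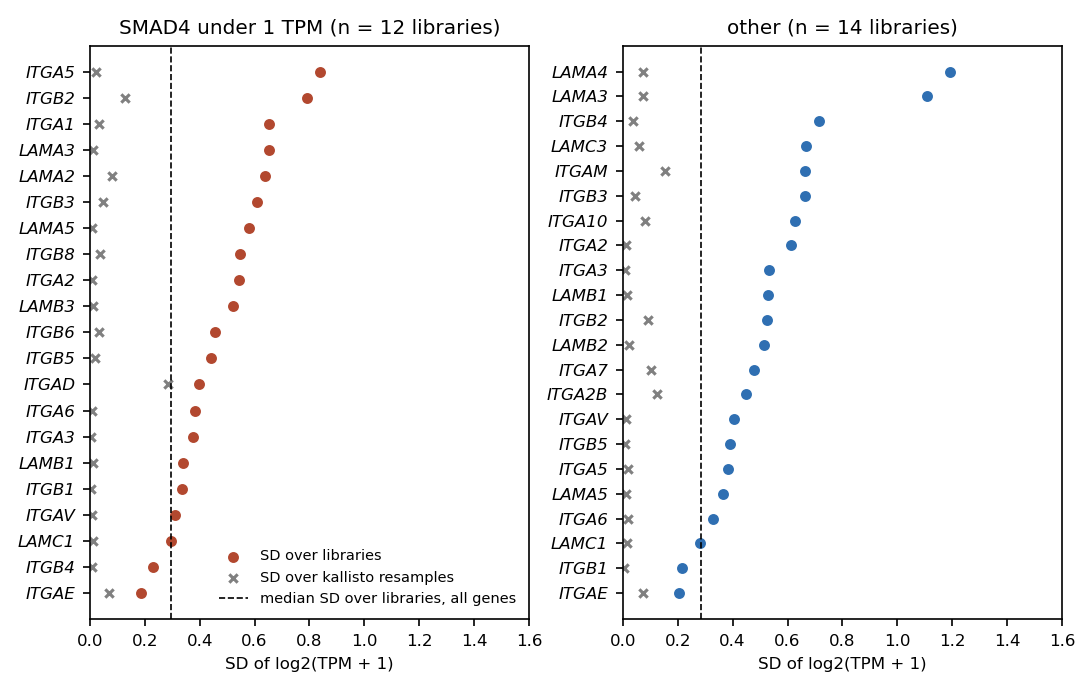
The horizontal axis gives the SD of log2(TPM + 1) over the 12 SMAD4-low (left) or 14 SMAD4-expressing libraries (right), with crosses for the SD over kallisto resamples and a dashed line at the median SD of all genes in that set. ITGA5 is highest on the left and LAMA4 on the right, and most genes lie to the right of the line.

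Some clones held the extreme value of several genes. How often these clones were extreme over all genes was not counted. Genes that vary together, such as LAMA3 and LAMB3, are not separate observations. Library 3 was lowest for 7 of the 21 genes, among them LAMA3, LAMB3, ITGA6 and ITGB4, and library 21 was highest for 6, among them LAMA3, LAMB3 and ITGB4. Library 5 was lowest for 6 others, among them ITGA3, ITGB1, LAMB1 and LAMC1. Of the SMAD4-expressing clones, library 14 was highest for 6 of 22 genes, among them ITGAV, ITGB3, ITGB5 and LAMB2, and library 18 for 5, among them ITGA2, ITGA3 and ITGA5. Library 22 was lowest for 5, ITGB1, ITGB3, ITGB5, LAMA4 and LAMB2. The totals of these 6 libraries lay between 27144920 and 30070366 estimated counts.

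Between the labels BxPC3 and Panc-1, the only groups that the labels give, no integrin or laminin gene was called. ITGAE had medians of 48.4 TPM (range 36.7 to 51.2) under the BxPC3 label and 54.5 TPM (range 41.6 to 66.1) under the Panc-1 label, and ITGA5 had 63.0 TPM (range 50.5 to 127.8) and 45.7 TPM (range 18.2 to 88.7). Both overlapped, and ITGAX, which also had an unadjusted p under 0.05, was at most 0.378 TPM in every library. With edgeR's quasi-likelihood test over 16008 genes, 0 of the 30 genes tested passed an adjusted p of 0.05 (Benjamini-Hochberg) and a log2 fold change of 1, as did 0.0% of all genes, and 3 had an unadjusted p under 0.05, where 2.29% of all genes did. The smallest adjusted p of the 30 was 0.99998. DESeq2 and limma also called 0, with 3 and 2 at an unadjusted p under 0.05. Since each label holds both SMAD4 sets, the spread within a label spans both. SMAD4 also went against part of the labels, so the comparison cannot show that BxPC3 and Panc-1 are alike in these genes.

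With the SMAD4 set as a covariate, 0 were called and 7 had an unadjusted p under 0.05 (ITGA1, ITGA5, ITGA6, ITGAE, ITGAX, ITGB1 and LAMC1), where 7.52% of all genes did. ITGA6 had the smallest, with a log2 fold change of Panc-1 minus BxPC3 labels of -0.40 (SE 0.11, edgeR unadjusted p = 0.0013465, Benjamini-Hochberg adjusted p = 0.54619). Within the SMAD4-low libraries, its median was 612 TPM (502 to 645) in 5 libraries labelled BxPC3 and 398 TPM (287 to 622) in 7 labelled Panc-1. Inside a set the ranges of the labels overlapped for all 21 genes in the SMAD4-low libraries, where 0.66% of all genes did not overlap, and for all 22 in the SMAD4-expressing libraries, where 0.0148% did not.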

How the data were processed

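The authors sequenced polyadenylated RNA of 26 SCDCLs from both ends and assigned the reads to human transcripts (Ensembl release of GRCh38) with kallisto 0.46.1. The table they deposited was made with tximport and holds 41078 genes. For each library the authors deposited TPM, estimated counts (TPM multiplied by a gene's mean transcript length, then brought to the library's total), the mean effective transcript length as a signal per gene, and 30 sets of resampled estimated counts, of which the first 5 were used. Of the genes, 36315 matched GENCODE 44 by identifier, which gave symbols and positions.

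Groups were taken from the labels, and the SMAD4 sets from a threshold of 1 TPM. The genes and lists were chosen with earlier results of these data known. All 37 genes are accounted for (1 more gene is not reported here), in full where a median reached 10 TPM in either set, and up to 3 genes a list and direction are named by size of difference. Labels were compared with edgeR 4.0.16 (quasi-likelihood, TMM, filterByExpr, R 4.3.3) on rounded estimated counts, fitted and adjusted (Benjamini-Hochberg) over all genes tested. Alternatives were DESeq2 1.42.0, limma 3.58.1 on log2(TPM + 1), other scalings, filters and pseudocounts (0.1 and 5), and leaving out each library. Levels, spread and correlations were computed with pandas 2.3.3, numpy 2.4.6 and scipy 1.17.1 under Python 3.11.15. The scripts were tested on simulated data. Totals were 27035724 to 34945608 estimated counts, and values near 0 are limited by counting error. The promoter windows came from RefSeq. The reads, proteins and gemcitabine response were not analysed here.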

Additional observations from a re-analysis of the deposited data

How the results depend on the processing

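The number of integrin and laminin genes called between labels was 0 under all 6 alternatives and with each library left out. The counts of genes without overlap were 7 to 9 higher in the SMAD4-low and 2 to 4 higher in the SMAD4-expressing libraries under every setting, leaving out each library included. The fourth gene on the second side is LAMA4 without library 22. No median difference between the sets changed sign under another scale or pseudocount, 83 stayed within 1 SD and 29 moved, and with each library left out all 728 stayed within it, although that of ITGA5, close to 0, changed sign without some libraries. Of 32 chain shares, 8 moved by more than 1 SD on estimated counts.

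Of the correlations, ITGAV with ITGB6 in the SMAD4-low libraries no longer passed p = 0.05 with TMM-scaled CPM (r = 0.567, permutation p = 0.0561) or within the libraries labelled Panc-1 (r = 0.679), and ran from 0.538 to 0.718 with each library left out. ITGA6 with ITGB4 in the SMAD4-expressing libraries reversed within the libraries labelled BxPC3 (r = 0.320) and without library 9 (r = 0.0387), and ran from -0.315 to 0.0387. The cause was not tested. For LAMA3 with LAMB3 and ITGA6 with ITGB4 in the SMAD4-low libraries, the unadjusted permutation p of r stayed under 0.05 in every setting. Their r ran from 0.952 to 0.978 and from 0.663 to 0.817 with each library left out. Spearman's rho of ITGA6 with ITGB4 had an adjusted permutation p of 0.0563, which did not pass. The settings within 1 label and the shares from estimated counts were chosen after seeing the data.

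No paired analysis was possible, because each library is from a different clone and the labels name no pairs. Each clone has 1 library, so differences between clones include any error of culture and library preparation. TPM of genes with short assigned transcripts, such as ITGAE and ITGAD, rest on few counts.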
